A study of Mus musculus with 8 samples.

Results

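Drug- and toxicant-metabolizing enzymes of the mouse lung were described here as a set of 31 genes named by symbol: the cytochrome P450 genes Cyp2f2, Cyp2e1, Cyp2b10, Cyp2a5, Cyp2s1, Cyp4b1 and Cyp2d22 with their reductase Por, the other phase 1 enzymes (Fmo1, Fmo2, Ephx1, Aldh1a1, Aldh1a7, Aldh2, Aox1, Aox3, Adh1, Adh7, Cbr2 and Cbr3) and the phase 2 transferases (Gsta3, Gsta4, Gstm1, Gstm2, Gsto1, Gstt1, Gstp1, Mgst1, Mgst3, Sult1a1 and Sult1d1). Of these, 29 had a probe set whose only gene symbol was their own, out of 13854 genes measured, and all 29 passed the filter on dim signals. No probe set was listed for Por, and that of Cyp2a5 is shared with Cyp2a4, so the signal of neither was analysed here. Their promoters were searched with the others. Each of the 29 was read from 1 probe set, the one brightest on average across the 8 arrays.

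Phase 1 enzymes oxidize, reduce or hydrolyse foreign compounds, and phase 2 enzymes couple the products to glutathione or sulfate, which makes most of them easier to excrete. In the mouse lung the club cells, the secretory cells of the airway lining, carry many of the P450 enzymes, while alveolar type 2 cells, endothelium and other cells hold other members of these families. Toxicity of naphthalene to mouse club cells, for example, depends on its oxidation by the enzyme that Cyp2f2 encodes. Cyp2e1 is best known from liver and oxidizes ethanol and small solvents.

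The lungs came from male ICR mice, an outbred stock, aged 5 to 6 weeks, and RNA of lobe 1 of the right lung was hybridized to 8 single-colour Affymetrix arrays. SWCNT mice had received a single instillation into the trachea, exposed through a neck incision under pentobarbital, of 0.5 mg of single-walled carbon nanotubes in 50 µl of 0.1% PF68. PF68 mice had received Pluronic F-68, the surfactant that carried the tubes, alone. Lungs were taken at day 7 or day 1, which gave 2 arrays in each of 4 groups (SWCNT day 7, PF68 day 7, SWCNT day 1 and PF68 day 1), to learn which genes the nanotubes change beyond their solvent. Every mouse had thus undergone surgery and an instillation, no untouched lung was among the samples used here, and the 2 arrays of a group are called biological replicates without naming animals, so p-values measure the spread between arrays, which may be technical.

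Promoters are shown for the 3 genes whose nanotube difference itself differed between the days (Cyp2e1, Gstm1 and Gstm2) and for Aldh1a7, which was lower in SWCNT lungs on both days. Each sequence is the 250 bases before an annotated transcript start, read 5′ to 3′ on the gene's strand, from RefSeq on build GRCm38.p6, with capitals for the matches to the words searched.
Cyp2e1 (chr7:140763569-140763818, plus strand): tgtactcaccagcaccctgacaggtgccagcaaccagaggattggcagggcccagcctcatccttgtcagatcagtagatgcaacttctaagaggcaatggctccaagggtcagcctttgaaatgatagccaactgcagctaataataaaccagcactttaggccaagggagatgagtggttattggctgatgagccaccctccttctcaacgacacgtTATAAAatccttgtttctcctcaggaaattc
Gstm1, the second of 2 annotated starts (chr3:108017819-108018068, minus strand): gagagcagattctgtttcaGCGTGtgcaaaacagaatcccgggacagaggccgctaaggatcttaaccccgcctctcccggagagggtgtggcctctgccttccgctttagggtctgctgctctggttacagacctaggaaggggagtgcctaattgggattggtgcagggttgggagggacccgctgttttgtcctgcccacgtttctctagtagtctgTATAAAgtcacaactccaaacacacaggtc
Gstm2 (chr3:107986421-107986670, minus strand): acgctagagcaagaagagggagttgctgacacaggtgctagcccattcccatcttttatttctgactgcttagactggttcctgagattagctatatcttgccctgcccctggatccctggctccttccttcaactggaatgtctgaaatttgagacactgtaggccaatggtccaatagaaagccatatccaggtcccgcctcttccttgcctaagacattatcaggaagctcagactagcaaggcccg
Aldh1a7 (chr19:20727557-20727806, minus strand): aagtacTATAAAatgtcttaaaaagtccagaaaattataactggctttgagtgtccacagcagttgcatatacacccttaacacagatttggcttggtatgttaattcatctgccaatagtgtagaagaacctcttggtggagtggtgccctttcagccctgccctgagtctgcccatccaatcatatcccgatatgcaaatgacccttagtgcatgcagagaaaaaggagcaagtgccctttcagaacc

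The promoter of Cyp2e1 held TATAAA, the classic TATA box, starting 31 bases before the transcript start, and that of Gstm1 held it 30 bases before the start. Gstm1 also held GCGTG, the core word of the xenobiotic response element bound by the aryl hydrocarbon receptor, 231 bases before the start. In Aldh1a7 the match to TATAAA lay 244 bases before the start, and Gstm2 held none of the words searched. Gstm1 and Gstm2 are neighbours in the genome with 0 protein-coding genes between them, as are Aldh1a1 and Aldh1a7, Fmo1 and Fmo2, Aox1 and Aox3, Adh1 and Adh7, and Cyp2s1 and Cyp2b10. The table of promoters held 31 starts for 27 of the 31 genes. GCGTG, searched on both strands, was in 29% of these starts, against 28.2% of all 32851 starts. TGACNNNGC on both strands, the antioxidant response element that Nrf2 binds, was in 6.45% (Gsta3 and Mgst1) against 10.2% of all starts, and AGGTCA on both strands, a half-site of nuclear receptors, was in 6.45% (Cyp2f2 and Fmo2) against 14%. TATAAA on the gene's strand was in 16.1% (Aldh1a7, Cyp2a5, Cyp2e1, Ephx1 and Gstm1) against 7.59% of all starts. Such matches describe letters in these windows and not binding.

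Signals are given on the deposited scale, read as log2, on which the median probe set of every array was -0.63 and the highest value 8.31, so signals below -0.63 are dim. They show 1 gene across arrays and are not compared between genes, because probe sets differ in brightness. Arrays of a group correlated at 0.915 to 0.941 over all probe sets (4 pairs) and arrays of different groups at 0.891 to 0.931 (24 pairs). Markers of the labelled tissue were present: of the 14 alveolar type 2, 12 alveolar type 1 and 15 endothelial genes tested (15, 12 and 15 listed), none was below the array median on both arrays of any group. Signs of RNA quality and of input differed between groups. For beta-actin, the distance between its 3′ and 5′ probe sets, larger in shortened RNA, was 2.97 ± 0.04 in SWCNT day 7 lungs and 3.27 ± 0.03 in PF68 day 7 lungs, and 1.34 ± 0.03 in SWCNT day 1 lungs and 2.02 ± 0.02 in PF68 day 1 lungs (SD, n = 2 each). Bacterial hybridization spikes, usually added in equal amounts, differed by -0.53 between SWCNT and PF68 on day 7 and by 0.22 on day 1. Scaling to them would move the median difference of all genes to 0.55 on day 7 and to -0.24 on day 1, so every difference below is relative to the other genes of the array. In bulk lung RNA, fewer cells of a type and less RNA per cell cannot be told apart. The part of these quantities in the results was not tested.

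On day 7 the enzymes stood mostly lower in SWCNT lungs, relative to the other genes of the array, whereas scaled to the spikes 22 of the 29 were above 0. Cyp2e1, Aldh1a1, Aldh1a7, Gstm1 and Sult1d1 fell, none rose, and 24 of the 29 did not pass an adjusted p of 0.05 (limma over all genes), so 17.2% of the members were called, against 2.18% of all genes (1.4% higher and 0.78% lower). Both SWCNT arrays lay below both PF68 arrays for 20 members and above them for 5. Among all genes the shares were 25% below and 28.2% above. The median member difference was -0.26 and that of all genes 0.02. On day 1 the members moved both ways: Cyp2e1, Gstm1 and Sult1a1 rose and Cyp2f2 and Aldh1a7 fell, again 17.2% called, against 2.17% of all genes (0.931% higher and 1.23% lower). The groups did not overlap for 13 members above and 10 below, against 24.6% and 28.6% of all genes, and the median was 0.05 beside -0.02 for all genes. With any 1 of the 8 arrays left out, no day 7 call remained (13 to 17 members stayed at an unadjusted p under 0.05) and Cyp2e1 alone remained on day 1. Scaled to the spikes, 10 members were called on day 7, 8 higher and 2 lower, and 5 on day 1, 1 higher and 4 lower. On that scale the median of all genes was itself 0.55 on day 7 and -0.24 on day 1. Of the 29 members, 21 lay below that median on day 7 and 10 on day 1. The share of all genes called on that scale is not given here, so these calls cannot be told from the shift of all genes.

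**Figure D1:**
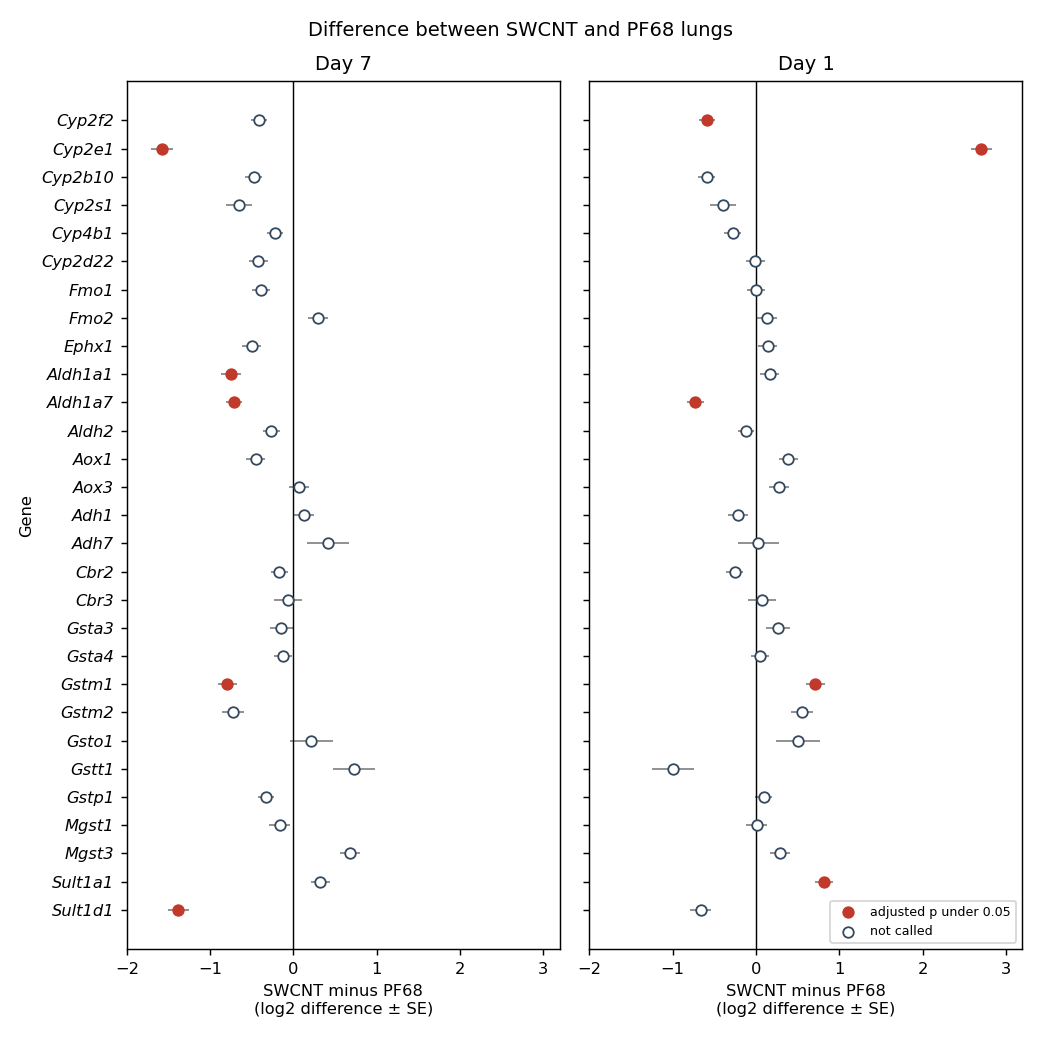
Log2 difference SWCNT minus PF68 of each of the 29 measured enzymes on day 7 (left) and day 1 (right), with points for the estimate from 2 arrays per group, bars for its standard error and filled points for an adjusted p under 0.05. Cyp2e1 stands at -1.58 on day 7 and at 2.71 on day 1, and most day 7 points lie left of 0.

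Cyp2e1 showed the widest swing of the P450 genes. On day 7 its signal was 0.67 and 0.51 in SWCNT lungs, against 2.06 and 2.29 in PF68 lungs, and on day 1 it was 4.18 and 4.10 in SWCNT lungs, against 1.44 and 1.43 in PF68 lungs. The SWCNT arrays were thus the lowest of the 8 on day 7 and the highest on day 1, with no overlap on either day. Cyp2e1 fell by 1.58 on the log2 scale on day 7 (SE 0.13, adjusted p = 0.0147, 2.99 times lower), and rose by 2.71 ± 0.13 on day 1 (adjusted p = 0.00115, 6.52-fold). The day 7 difference minus the day 1 difference was -4.28 ± 0.18 (adjusted p = 0.00358), and it stayed past the threshold with any 1 array left out, at an adjusted p of at most 0.048.

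Genes of the adipocyte list were set beside Cyp2e1. Car3, a carbonic anhydrase abundant in fat, had 1.86 and 1.77 in SWCNT lungs, against 4.07 and 4.16 in PF68 lungs on day 7, and 5.65 and 5.5 in SWCNT lungs, against 2.16 and 2.17 in PF68 lungs on day 1. Adipoq, which encodes the fat hormone adiponectin, had 0.06 and -0.37 in SWCNT lungs, against 0.90 and 0.93 in PF68 lungs on day 7, and 2.67 and 2.81 in SWCNT lungs, against -0.39 and 0.07 in PF68 lungs on day 1. Both had the day 1 SWCNT arrays as the highest of the 8. Of 10 adipocyte genes tested (13 listed), 0 rose and 1 fell on day 7 (Car3, -2.30 ± 0.11, adjusted p = 0.00558; 6 had an unadjusted p under 0.05), while 4 rose and none fell on day 1: Car3 (3.41 ± 0.11), Adipoq (2.90 ± 0.21), Pck1 (2.0 ± 0.24) and Fabp4 (1.64 ± 0.12). Their summed linear signal was 220.3 to 229.7 in SWCNT and 189.8 to 199.3 in PF68 lungs on day 7, and 278.2 to 286.6 in SWCNT and 172.6 to 183 in PF68 lungs on day 1. The sum weights bright genes most, and the list's brightest probe set on day 7, that of Scd1, a fatty acid desaturase, had 7.19 and 7.16 in SWCNT lungs, against 6.59 and 6.63 in PF68 lungs on that day. By sign, 7 of the 10 genes were lower in SWCNT lungs on day 7 (median -0.41), with Scd1, Pparg and Fabp4 higher, and all 10 were higher on day 1 (median 0.91), so the sum and the median of the list differ in sign on day 7. For Lpl, Retn, Pparg and Scd1 of this list the day 1 SWCNT arrays were not the highest of the 8. Of hepatocyte genes 7 of 14 were bright enough to test, none was called on either day (1 on day 7 and 2 on day 1 at an unadjusted p under 0.05), and their sum was 4.247 to 5.549 in SWCNT and 6.465 to 6.503 in PF68 lungs on day 7, and 3.178 to 4.824 in SWCNT and 4.168 to 4.593 in PF68 lungs on day 1. Skeletal muscle genes also stood out in day 1 SWCNT lungs, where 11 of 17 rose and their sum was 152.1 to 154.9, against 18.95 to 20.44 in PF68 lungs, and so did squamous epithelium genes (4 of 12 rose, sum 46.08 to 49.62 in SWCNT lungs, against 6.186 to 10.43 in PF68 lungs). The part of these cell types in the Cyp2e1 signal was not tested.

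**Figure D2:**
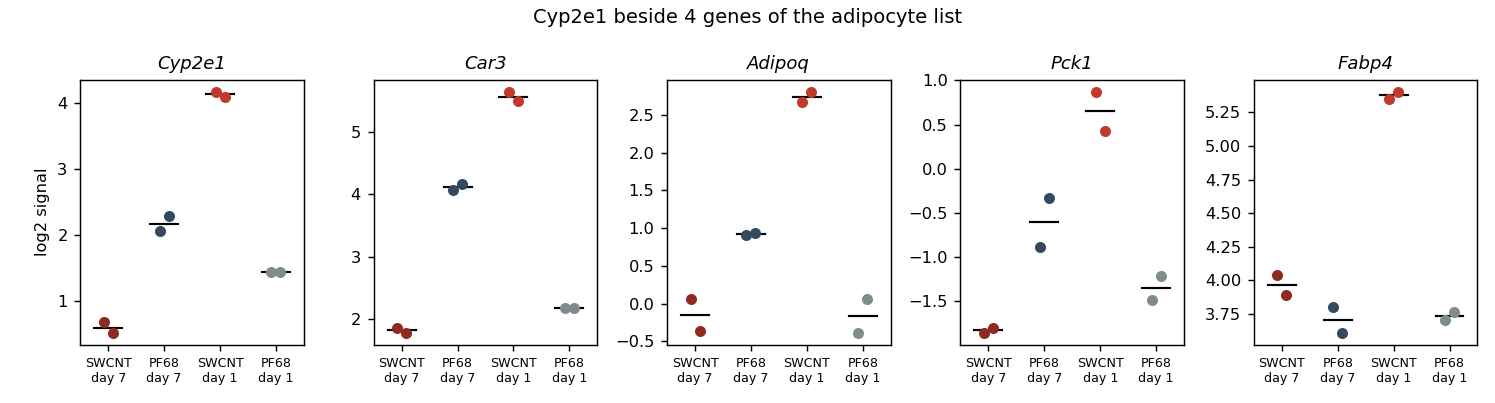
Log2 signal of Cyp2e1 and of the 4 adipocyte genes called on day 1, with a point for each array and a line for the mean of the 2 arrays of a group. The day 1 SWCNT arrays are the highest in every panel, and on day 7 the SWCNT arrays lie below the PF68 arrays for Cyp2e1, Car3, Adipoq and Pck1 but not for Fabp4. The 4 genes were picked by their day 1 call, so their day 1 direction was set by the choice. Lpl, Retn, Pparg and Scd1 of the same list, not drawn, did not have the day 1 SWCNT arrays as the highest.

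The other P450 genes stood lower in SWCNT lungs on day 7, relative to the other genes of the array, with smaller differences. Cyp2f2, the naphthalene-oxidizing P450 of club cells, had a signal of 7.07 and 7.04 in SWCNT lungs, against 7.48 and 7.46 in PF68 lungs on day 7. On day 1 Cyp2f2 had 6.37 and 6.42 in SWCNT lungs, against 7.00 and 6.97 in PF68 lungs. The groups did not overlap on either day. Its difference was -0.42 ± 0.10 on day 7 (adjusted p = 0.0852), which missed the threshold, and it fell by 0.59 on day 1 (SE 0.10, adjusted p = 0.0499). Cyp2b10, the phenobarbital-inducible form, had 4.28 and 4.34 in SWCNT lungs, against 4.75 and 4.82 in PF68 lungs on day 7, and 4.81 and 4.87 in SWCNT lungs, against 5.43 and 5.43 in PF68 lungs on day 1. Its differences of -0.48 ± 0.10 on day 7 (adjusted p = 0.0707) and -0.59 ± 0.10 on day 1 (adjusted p = 0.0532) passed on neither day, and its 2 further probe sets differed by -0.52 and -0.27 on day 7 and by -0.36 and -0.57 on day 1. The main probe set and the further one with -0.52 and -0.36 are of a type that can match several transcripts.

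Cyp2s1, a P450 of surface epithelia that dioxin can induce, had 3.43 and 3.57 in SWCNT lungs, against 4.22 and 4.09 in PF68 lungs on day 7, and 2.35 and 2.70 in SWCNT lungs, against 2.96 and 2.87 in PF68 lungs on day 1. Cyp4b1, a lung P450 that hydroxylates fatty acids and activates some plant toxins, had 5.4 and 5.37 in SWCNT lungs, against 5.63 and 5.58 in PF68 lungs on day 7, and 5.58 and 5.62 in SWCNT lungs, against 5.85 and 5.90 in PF68 lungs on day 1. Both genes lay lower in SWCNT lungs without overlap on both days, but their differences (-0.66 ± 0.15 and -0.22 ± 0.10 on day 7, -0.39 ± 0.15 and -0.28 ± 0.10 on day 1) were not called. Cyp2d22, of the subfamily that handles many drugs in liver, had 1.28 and 1.32 in SWCNT lungs, against 1.76 and 1.68 in PF68 lungs on day 7. On day 1 Cyp2d22 had 1.82 and 2.0 in SWCNT lungs, against 1.96 and 1.88 in PF68 lungs, where the groups overlapped. A second Cyp2d22 probe set differed by -1.40 ± 0.19 on day 7 and by 0.50 ± 0.19 on day 1, so the size of its difference depends on the probe set. All 6 P450 genes were thus lower in SWCNT lungs on day 7 relative to the other genes of the array, with a median of -0.45, whereas scaled to the spikes 4 of the 6 were above 0 and all 6 below the median of all genes.

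**Figure D3:**
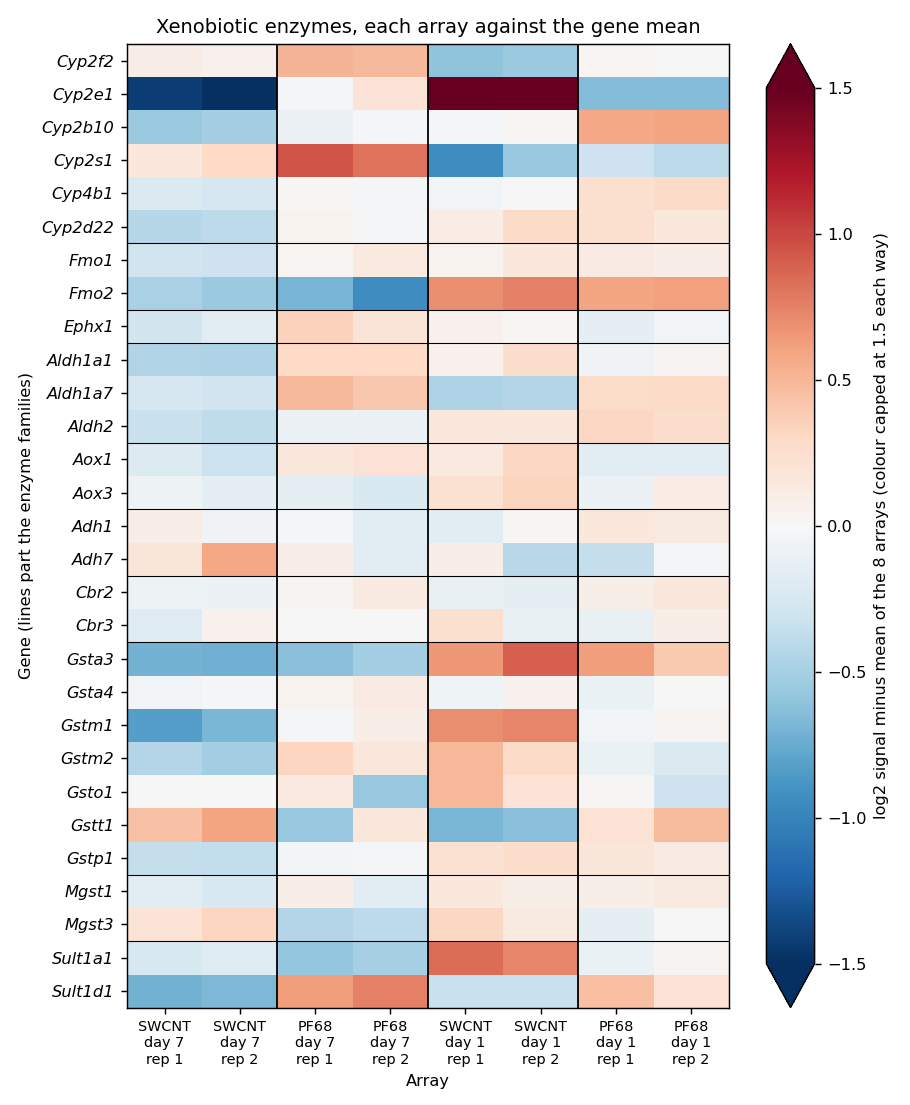
Log2 signal of each enzyme on each of the 8 arrays minus the mean of that gene over the 8 arrays, in red where above and in blue where below (colours end at 1.5), with replicates of a group side by side and lines between families. The rows of Cyp2f2, Cyp2b10, Cyp2s1, Aldh1a7 and Sult1d1 are bluer in SWCNT than in PF68 columns on both days, while Cyp2e1, Gstm1 and Gstm2 change sides.

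The flavin-containing monooxygenases, which oxygenate nitrogen and sulfur atoms of drugs, did not pass the test on either day. Fmo1 had 4.74 and 4.73 in SWCNT lungs, against 5.06 and 5.19 in PF68 lungs on day 7, and 5.10 and 5.20 in SWCNT lungs, against 5.16 and 5.13 in PF68 lungs on day 1. Fmo2, the main form in lung, had 5.02 and 4.94 in SWCNT lungs, against 4.81 and 4.57 in PF68 lungs on day 7, and 6.20 and 6.26 in SWCNT lungs, against 6.09 and 6.12 in PF68 lungs on day 1. The SWCNT arrays of Fmo2 were above the PF68 arrays on both days, by 0.29 ± 0.12 on day 7 and 0.13 ± 0.12 on day 1. Its 4 further probe sets disagreed, at -0.95, -0.63, -0.16 and 0.81 on day 7, so no direction can be read for Fmo2. Ephx1, the microsomal epoxide hydrolase that opens the epoxides P450 enzymes form, had 3.54 and 3.64 in SWCNT lungs, against 4.17 and 4.02 in PF68 lungs on day 7, and 3.88 and 3.84 in SWCNT lungs, against 3.68 and 3.77 in PF68 lungs on day 1. It lay below PF68 without overlap on day 7 (-0.50 ± 0.11, adjusted p = 0.0795) and above on day 1 (0.14 ± 0.11, adjusted p = 0.584), neither past the threshold.

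Among the aldehyde dehydrogenases, Aldh1a7, a rodent paralogue of Aldh1a1, fell on both days. Its signal was 4.04 and 4.0 in SWCNT lungs, against 4.77 and 4.69 in PF68 lungs on day 7. On day 1 Aldh1a7 had 3.82 and 3.85 in SWCNT lungs, against 4.56 and 4.57 in PF68 lungs. The SWCNT arrays of both days lay below all 4 PF68 arrays. Aldh1a7 fell by 0.71 on day 7 (SE 0.10, adjusted p = 0.0392) and by 0.73 on day 1 (SE 0.10, adjusted p = 0.0326), and the difference between these was 0.02 ± 0.14 (adjusted p = 0.958). Its neighbour Aldh1a1, which oxidizes retinal to retinoic acid, had 6.16 and 6.15 in SWCNT lungs, against 6.90 and 6.90 in PF68 lungs on day 7, and 6.67 and 6.88 in SWCNT lungs, against 6.56 and 6.66 in PF68 lungs on day 1. It fell by 0.75 on day 7 (SE 0.12, adjusted p = 0.044) and differed by 0.16 ± 0.12 on day 1 (adjusted p = 0.519), and the test of the difference between the days did not pass (-0.91 ± 0.16, adjusted p = 0.0539). Aldh2, the mitochondrial enzyme that clears acetaldehyde, had 5.37 and 5.33 in SWCNT lungs, against 5.62 and 5.62 in PF68 lungs on day 7, and 5.87 and 5.87 in SWCNT lungs, against 6.01 and 5.97 in PF68 lungs on day 1. It was not called on either day, and 3 of its 4 further probe sets had the opposite sign on day 1.

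The aldehyde oxidases are molybdenum enzymes that oxidize aldehydes and nitrogen rings. Aox1 had 1.68 and 1.57 in SWCNT lungs, against 2.05 and 2.10 in PF68 lungs on day 7. On day 1 Aox1 had 2.04 and 2.20 in SWCNT lungs, against 1.73 and 1.74 in PF68 lungs, which put the SWCNT arrays below PF68 on day 7 and above on day 1 without overlap. Its differences of -0.45 ± 0.11 and 0.39 ± 0.11 were not called, nor was that between the days (-0.84 ± 0.16, adjusted p = 0.062). Aox3 had 2.75 and 2.69 in SWCNT lungs, against 2.70 and 2.60 in PF68 lungs on day 7, where the groups overlapped, and 3.06 and 3.16 in SWCNT lungs, against 2.74 and 2.94 in PF68 lungs on day 1. No alcohol dehydrogenase or carbonyl reductase was called on either day. Adh1, the main ethanol-oxidizing form, had 3.32 and 3.17 in SWCNT lungs, against 3.19 and 3.05 in PF68 lungs on day 7, and 3.06 and 3.23 in SWCNT lungs, against 3.38 and 3.35 in PF68 lungs on day 1. Adh7, a retinol-oxidizing form of the upper digestive tract, lay near the array median, at -0.24 and 0.15 in SWCNT lungs, against -0.33 and -0.60 in PF68 lungs on day 7, and -0.33 and -0.85 in SWCNT lungs, against -0.79 and -0.45 in PF68 lungs on day 1. Cbr2, the carbonyl reductase abundant in mouse lung, had 7.61 and 7.59 in SWCNT lungs, against 7.73 and 7.82 in PF68 lungs on day 7, and 7.58 and 7.54 in SWCNT lungs, against 7.78 and 7.85 in PF68 lungs on day 1. It lay lower in SWCNT lungs without overlap on both days, with differences of -0.17 ± 0.10 on day 7 and -0.25 ± 0.10 on day 1, neither called. Cbr3, a cytosolic reductase, had 1.76 and 2.02 in SWCNT lungs, against 1.95 and 1.96 in PF68 lungs on day 7, and 2.19 and 1.85 in SWCNT lungs, against 1.85 and 2.06 in PF68 lungs on day 1, with overlap on both days.

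The mu-class glutathione transferases Gstm1 and Gstm2 changed sides between the days. Gstm1 had 3.87 and 4.0 in SWCNT lungs, against 4.67 and 4.79 in PF68 lungs on day 7. On day 1 Gstm1 had 5.38 and 5.42 in SWCNT lungs, against 4.65 and 4.73 in PF68 lungs. Its SWCNT arrays were the lowest of the 8 on day 7 and the highest on day 1, while the 4 PF68 arrays lay between 4.65 and 4.79. Gstm1 fell by 0.79 on day 7 (SE 0.11, adjusted p = 0.0394) and rose by 0.71 ± 0.11 on day 1 (adjusted p = 0.0451), and the day 7 difference minus the day 1 difference was -1.5 ± 0.16 (adjusted p = 0.0225). This probe set is of a type that can bind related transcripts, and the 3 further Gstm1 probe sets differed by -0.83, -0.72 and -0.36 on day 7 and by -0.24, 0.29 and -0.04 on day 1, so 2 of the 3 had the opposite sign on day 1. Gstm2 had 2.81 and 2.73 in SWCNT lungs, against 3.58 and 3.42 in PF68 lungs on day 7, and 3.75 and 3.54 in SWCNT lungs, against 3.15 and 3.03 in PF68 lungs on day 1. It was not called on either day (-0.73 ± 0.13, adjusted p = 0.0534, and 0.55 ± 0.13, adjusted p = 0.107), but the difference between the days was (-1.28 ± 0.18, adjusted p = 0.0388). With Cyp2e1, these were the 3 members (10.3%) whose nanotube difference itself differed between the days, against 2.34% of all genes. All 3 had a negative value, which 0.924% of all genes had past the threshold, against 1.41% with a positive one. With any 1 array left out Cyp2e1 alone remained so.

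Of the alpha, omega, theta and pi classes none was called on either day. Gsta3 had 2.29 and 2.29 in SWCNT lungs, against 2.38 and 2.49 in PF68 lungs on day 7, and 3.65 and 3.90 in SWCNT lungs, against 3.63 and 3.40 in PF68 lungs on day 1. For this probe set the distance between the days was wider than that between the treatments. The second Gsta3 probe set changed by 0.34 in SWCNT lungs and 0.64 in PF68 lungs between the days. Between the treatments it differed by -0.64 on day 7 and -0.33 on day 1. Gsta4, which detoxifies hydroxynonenal from oxidized lipid, had 3.80 and 3.81 in SWCNT lungs, against 3.90 and 3.97 in PF68 lungs on day 7, and 3.78 and 3.90 in SWCNT lungs, against 3.75 and 3.84 in PF68 lungs on day 1. Gsto1, which has thiol transferase activity, had 4.57 and 4.56 in SWCNT lungs, against 4.70 and 4.0 in PF68 lungs on day 7, and 5.06 and 4.78 in SWCNT lungs, against 4.59 and 4.25 in PF68 lungs on day 1, with a wide spread between arrays. Its probe set, like that of Gstm1, can bind related transcripts, and differed by 0.21 ± 0.26 on day 7 and 0.50 ± 0.26 on day 1. The second Gsto1 probe set differed by -0.18 ± 0.13 on day 7 and 0.24 ± 0.13 on day 1. Gstt1, the theta form that handles small halogenated solvents, had signs opposite to those of the mu class. It had 2.81 and 2.97 in SWCNT lungs, against 1.80 and 2.54 in PF68 lungs on day 7, and 1.7 and 1.76 in SWCNT lungs, against 2.59 and 2.85 in PF68 lungs on day 1. Its differences were 0.72 ± 0.25 on day 7 (adjusted p = 0.17) and -0.99 ± 0.25 on day 1 (adjusted p = 0.126), and that between the days 1.72 ± 0.36 (adjusted p = 0.0742), none past the threshold. Gstp1, the pi form of epithelia, had 5.97 and 5.95 in SWCNT lungs, against 6.29 and 6.29 in PF68 lungs on day 7, and 6.55 and 6.59 in SWCNT lungs, against 6.51 and 6.45 in PF68 lungs on day 1. Scaled to the spikes, 5 of the 7 soluble transferases were above 0 on day 7 and 4 on day 1, where 2 and 6 were above 0 on the main scale.

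The microsomal transferases Mgst1 and Mgst3 sit in membranes and reduce lipid hydroperoxides. Mgst1 had 6.32 and 6.26 in SWCNT lungs, against 6.59 and 6.32 in PF68 lungs on day 7, and 6.64 and 6.57 in SWCNT lungs, against 6.57 and 6.63 in PF68 lungs on day 1. Mgst3 had 3.09 and 3.2 in SWCNT lungs, against 2.45 and 2.49 in PF68 lungs on day 7. On day 1 Mgst3 had 3.18 and 3.02 in SWCNT lungs, against 2.74 and 2.88 in PF68 lungs, higher in SWCNT lungs without overlap on both days (0.68 ± 0.12, adjusted p = 0.0534, and 0.29 ± 0.12, adjusted p = 0.274) but not called. The sulfotransferases went opposite ways. Sult1a1, which sulfates phenols, had 3.39 and 3.43 in SWCNT lungs, against 3.05 and 3.13 in PF68 lungs on day 7. On day 1 Sult1a1 had 4.46 and 4.36 in SWCNT lungs, against 3.53 and 3.67 in PF68 lungs. It rose by 0.82 ± 0.11 on day 1 (adjusted p = 0.0326) and was above PF68 without overlap on day 7 too (0.32 ± 0.11, adjusted p = 0.166). Sult1d1, which sulfates catecholamines and other phenols in mouse, had 0.15 and 0.19 in SWCNT lungs, against 1.49 and 1.61 in PF68 lungs on day 7, and 0.52 and 0.53 in SWCNT lungs, against 1.31 and 1.07 in PF68 lungs on day 1. Every SWCNT array lay below every PF68 array. Sult1d1 fell by 1.38 on day 7 (SE 0.12, adjusted p = 0.0185, 2.61 times lower) and differed by -0.66 ± 0.12 on day 1 (adjusted p = 0.0665), and its second probe set differed by -0.55 and -0.64 on these days.

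**Figure D4:**
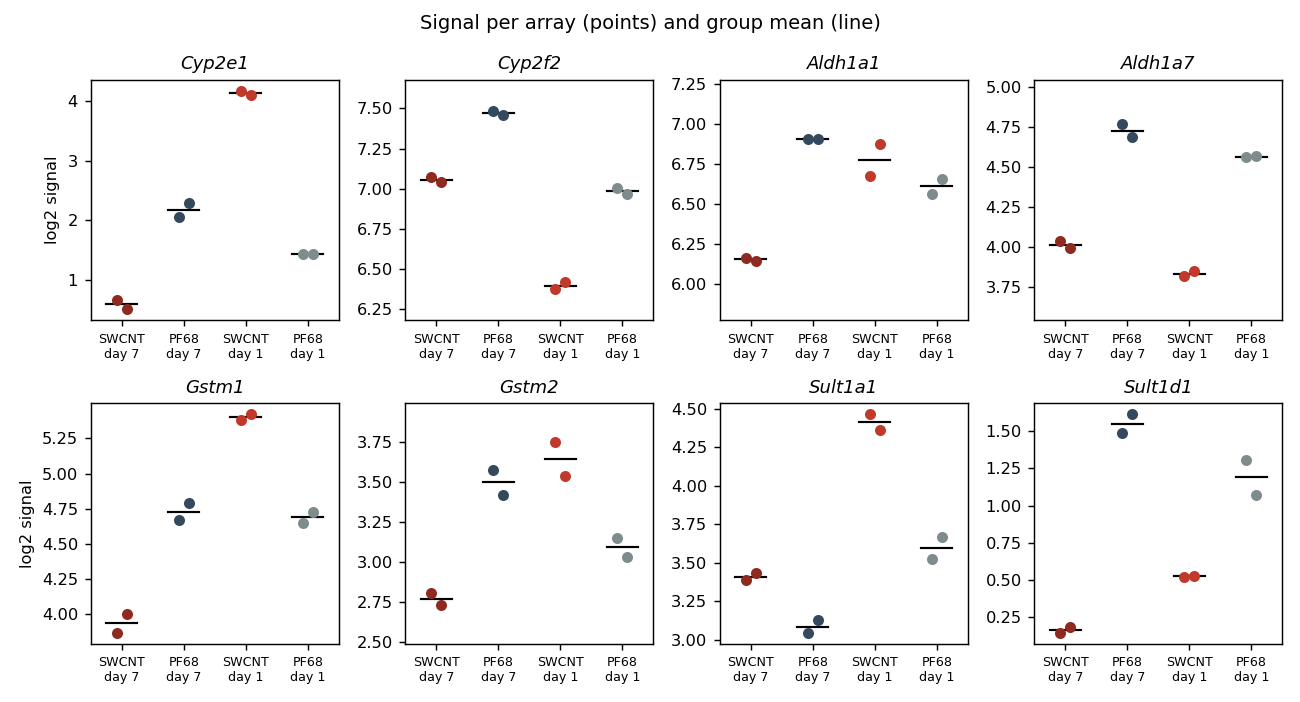
Log2 signal of the 7 enzymes called between SWCNT and PF68 lungs on either day, and of Gstm2, with a point for each array and a line for the mean of the 2 arrays of a group. Aldh1a7 and Sult1d1 are lower in SWCNT lungs on both days, while Cyp2e1, Gstm1 and Gstm2 are below PF68 on day 7 and above it on day 1.

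The 2 days had separate arrays and separate PF68 controls, so the sides taken on each can be set together. Both SWCNT arrays were below both PF68 arrays on both days for 8 of the 29 members (27.6%, against 7.92% of all genes): Cyp2f2, Cyp2b10, Cyp2s1, Cyp4b1, Aldh1a7, Aldh2, Cbr2 and Sult1d1. They were above on both days for Fmo2, Mgst3 and Sult1a1 (10.3%, against 7.23%), where Fmo2 holds for its brightest probe set alone, since 3 of its 4 further probe sets were below PF68 on day 7. Another 8 (27.6%, against 6.33%) were below on day 7 and above on day 1: Cyp2e1, Ephx1, Aldh1a1, Aox1, Gsta3, Gstm1, Gstm2 and Gstp1. Of these, the second Gsta3 probe set differed by -0.64 on day 7 and -0.33 on day 1, and 2 of 3 further Gstm1 probe sets had the opposite sign on day 1. Gstt1 was the one member above on day 7 and below on day 1 (3.45%, against 8.33%). These counts are descriptions, since genes measured on the same arrays are not independent. Of the 8 below on both days, Aldh2 had 3 of 4 further probe sets of opposite sign on day 1. Scaled to the spikes, Cyp2f2 (0.11), Cyp2b10 (0.05), Cyp4b1 (0.31), Aldh2 (0.26) and Cbr2 (0.36) were positive on day 7. Cyp2s1 (-0.13), Aldh1a7 (-0.18) and Sult1d1 (-0.85) stayed negative, and all 8 lay below the median of all genes.

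Between the days, most changes of these enzymes in SWCNT lungs were downward. In SWCNT lungs 15 of 29 members were called on day 7 against day 1 (51.7%, against 16.3% of all genes), 3 higher and 12 lower, against 9.59% and 6.7% of all genes. In PF68 lungs 7 were called (24.1%, against 17.7% of all genes), 3 higher and 4 lower, against 8.86% of all genes each way. The median change was -0.36 in SWCNT lungs (0.09 over all genes) and -0.04 in PF68 lungs (0.04 over all genes). In both treatments Cyp2s1 and Cyp2f2 rose between the days, Cyp2s1 by 0.97 ± 0.15 in SWCNT lungs and 1.24 ± 0.15 in PF68 lungs, and Cyp2f2 by 0.66 ± 0.10 and 0.49 ± 0.10. Cyp2b10, Fmo2, Gsta3 and Sult1a1 were lower on day 7 in both. The changes of Fmo2 were -1.25 ± 0.12 in SWCNT lungs and -1.41 ± 0.12 in PF68 lungs, those of Gsta3 -1.49 ± 0.14 and -1.08 ± 0.14, those of Sult1a1 -1.0 ± 0.11 and -0.51 ± 0.11, and those of Cyp2b10 -0.53 ± 0.10 and -0.64 ± 0.10. The second Gsta3 probe set changed by 0.34 in SWCNT lungs and 0.64 in PF68 lungs, against the sign of the first, and 1 of 4 further Fmo2 probe sets had the opposite sign in each treatment.

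Cyp2e1 moved apart in the treatments, by -3.55 ± 0.13 in SWCNT lungs (adjusted p = 0.000963) and 0.74 ± 0.13 in PF68 lungs (adjusted p = 0.018). Gstm1 changed by -1.47 ± 0.11 in SWCNT lungs (adjusted p = 0.00514) and by 0.04 ± 0.11 in PF68 lungs, where it was not called. The rest of the calls in SWCNT lungs were Gstt1, which rose by 1.16 ± 0.25, and Cyp2d22, Aldh1a1, Aldh2, Aox1, Gstm2 and Gstp1, which changed by -0.87 to -0.49. For Aldh2, 2 of 4 further probe sets had the opposite sign (0.64 and 0.50). The 3′ to 5′ distances of beta-actin and Gapdh were also larger on day 7 in both treatments, and day and quality cannot be told apart. Scaled to the spikes, the median change of all genes in PF68 lungs was itself -0.56, and 17 of the 29 members lay below it. The share of all genes called on that scale is not given here. In SWCNT lungs 2 calls remained without SWCNT day 7 replicate 2 and 14 without either PF68 day 7 array. Leaving out either PF68 day 1 array removed all 7 calls in PF68 lungs (limma; 11 and 9 members had an unadjusted p under 0.05), and scaled to the spikes 20 members were called there, 1 higher and 19 lower.

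**Figure D5:**
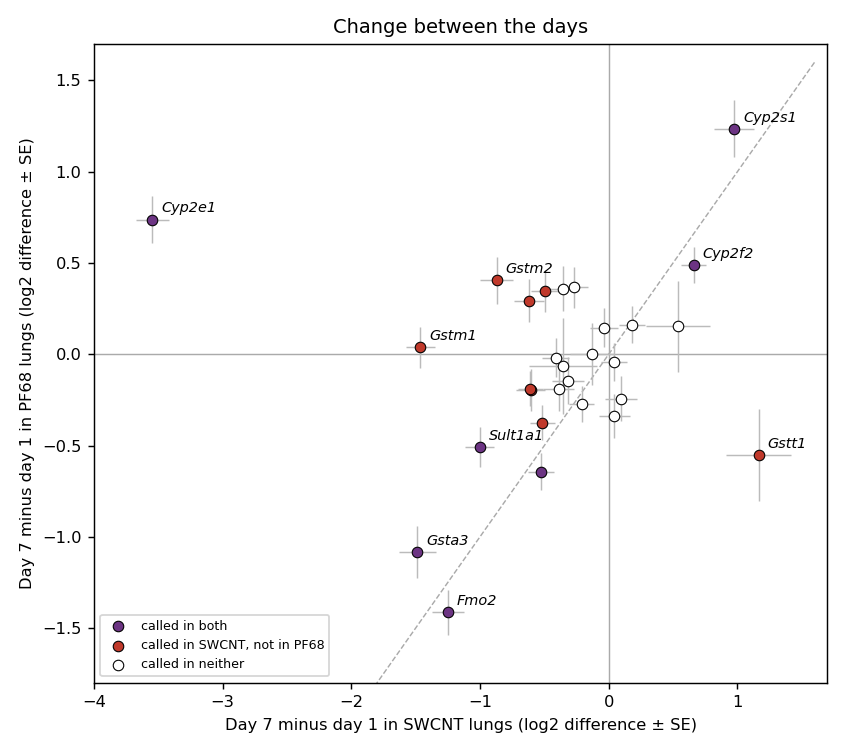
Change of each enzyme on day 7 minus day 1 in SWCNT lungs (horizontal axis) and in PF68 lungs (vertical axis), log2 difference with standard errors, coloured by the treatments in which the change was called, with the line of equal change dashed. Cyp2e1 lies far to the left at -3.55 in SWCNT lungs and 0.74 in PF68 lungs, and Cyp2s1, Cyp2f2, Fmo2 and Gsta3 lie near the dashed line.

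Other genes of the same pathways were read from lists. Of 25 further P450 genes listed, 13 could be tested. On day 7 Cyp4v3, a fatty acid hydroxylase, rose (0.95 ± 0.14, adjusted p = 0.0395) and Cyp1a1 fell, and on day 1 Cyp1a1 fell. Cyp1a1, the classic target of the aryl hydrocarbon receptor, had 1.38 and 1.18 in SWCNT lungs, against 3.70 and 3.64 in PF68 lungs on day 7, and -0.16 and 0.15 in SWCNT lungs, against 1.76 and 1.77 in PF68 lungs on day 1. These are log2 differences of -2.39 ± 0.14 (adjusted p = 0.00899) and -1.76 ± 0.14 (adjusted p = 0.00756), with no overlap. None of 9 genes tested for P450 partners (10 listed; cytochrome b5, its reductases and heme synthesis) was called on either day by limma, with 3 on day 7 and 2 on day 1 at an unadjusted p under 0.05 and medians of -0.15 and -0.03.

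Of 37 other phase 1 genes tested (48 listed), 0 rose and 2 fell on day 7: Aldh3a1, a dioxin-inducible aldehyde dehydrogenase (-1.85 ± 0.16, adjusted p = 0.018), and Pon1, an esterase (-0.92 ± 0.11, adjusted p = 0.0311). On day 1 Akr1b8, an aldo-keto reductase, rose (0.85 ± 0.12, adjusted p = 0.038) and none fell. Of 16 other glutathione transferase and related genes tested (19 listed), Gsta2 fell on day 7 (-1.49 ± 0.20, adjusted p = 0.0362) and none was called on day 1 (4 at an unadjusted p under 0.05). Of 12 other phase 2 genes tested (26 listed), Sult2b1, a sterol sulfotransferase, fell on day 7 (-1.31 ± 0.20, adjusted p = 0.0455) and none was called on day 1 (1 at an unadjusted p under 0.05). Of 17 regulators of these enzymes tested (21 listed), Ahr, the aryl hydrocarbon receptor, and Nfe2l2, which encodes Nrf2, rose on day 7 (0.64 ± 0.10, adjusted p = 0.0486, and 0.60 ± 0.10, adjusted p = 0.0484), and none was called on day 1 (2 at an unadjusted p under 0.05). Ahr had 3.41 and 3.43 in SWCNT lungs, against 2.74 and 2.84 in PF68 lungs on day 7 and Nfe2l2 4.16 and 4.16 in SWCNT lungs, against 3.55 and 3.56 in PF68 lungs, without overlap. Calls of genes from the pathway and cell type lists were not checked with arrays left out or scaled to the spikes. Among the members no day 7 call remained with any 1 array left out.

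Markers of the club cells, which hold several of these enzymes, were set beside them. Of 17 club cell genes tested (18 listed), 0 rose and 4 fell on day 7: Lypd2 (-1.62 ± 0.17), Bpifa1 (-1.38 ± 0.13), Bpifb1 (-1.30 ± 0.12) and Pon1. On day 1 Bpifa1 (1.90 ± 0.13) and Muc5b (1.14 ± 0.12) rose and Cckar (-1.02 ± 0.12) fell. The list's summed signal was 966.6 to 967.4 in SWCNT and 1045 to 1074 in PF68 lungs on day 7, and 997.8 to 1044 in SWCNT and 949.1 to 951.5 in PF68 lungs on day 1. It was thus lower in SWCNT lungs on day 7 and higher on day 1, but the sum weights bright genes most. By sign, 11 of the 17 genes were lower and 6 higher on day 7 (median -0.39). On day 1, 7 were lower and 10 higher (median 0.11). Scgb1a1, the defining secretoglobin of club cells, was at the highest value of the array, 8.31, on 5 of the 8 arrays, so it cannot show a rise above that value. On day 1 it had 8.20 and 8.20 in SWCNT lungs, against 8.31 and 8.31 in PF68 lungs, and was not called (-0.11 ± 0.11, adjusted p = 0.666). Its day 7 difference was 0.11 ± 0.11 (adjusted p = 0.625). Scgb3a2 differed by -0.26 ± 0.11 on day 7 (adjusted p = 0.239) and -0.45 ± 0.11 on day 1 (adjusted p = 0.122). Scgb3a1 had the opposite sign, at 0.02 ± 0.13 on day 7 (adjusted p = 0.939) and 0.61 ± 0.13 on day 1 (adjusted p = 0.0858). The secretoglobins thus gave no shared direction. No ciliated cell gene of 14 was called on either day by limma, with 5 on day 7 and 4 on day 1 at an unadjusted p under 0.05. Of alveolar type 2 genes 2 of 14 rose on day 7, and 1 rose and 1 fell on day 1, and of endothelial genes 1 of 15 fell on each day. Of 14 macrophage genes, 5 rose on day 7, with a summed signal of 494.2 to 495.4 in SWCNT lungs, against 382.3 to 401 in PF68 lungs. Of 12 neutrophil genes tested (14 listed), 1 rose and 5 fell on day 7 (10 had an unadjusted p under 0.05), with a summed signal of 153.5 to 154.4 in SWCNT lungs, against 320 to 321.8 in PF68 lungs. On day 1 of the neutrophil genes 1 rose and 1 fell, and the sum was 347.7 to 351.5 in SWCNT lungs, against 336.1 to 341.4 in PF68 lungs. Fibroblast genes rose on day 7 for 4 of 14 and on day 1 for 2 of 14, and alveolar type 1 genes fell on day 7 for 2 of 12, with none called on day 1 by limma (2 at an unadjusted p under 0.05). No macrophage gene was called on day 1 (5 at an unadjusted p under 0.05). The part of these cell types in the enzyme differences was not tested.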

How the data were processed

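Single-colour Affymetrix arrays were used, with 2 arrays in each of the 4 groups named by the labels. The deposited table gives 1 value per probe set and array, taken here to be a log2 signal. The submitters' processing notes name RMA alone. Log base and offset are not given in the sources; another base would multiply every difference by 1 factor and leave tests and calls as they are. All arrays held the same sorted values (SD 0), as quantile normalization leaves them. The number of arrays limits the precision.

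Of 45101 probe sets, 64 controls and 8 with a missing value were left out, 34945 had 1 gene symbol in the platform's annotation, 932 had several and 9160 were not listed. RefSeq held the gene IDs of 34741 (GRCm38.p6, used for names, gene order and promoters). Probe sets that reached the median of the array on 2 or more of the 8 arrays were kept (23308), and each of 13854 genes was read from its probe set with the highest mean; 5810 had more than 1.

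Group means of the 8 arrays were fitted by limma (version 3.58.1, R 4.3.3) through lmFit and eBayes, with 4 residual degrees of freedom and 1.81 from the prior, without a replicate block, and p-values adjusted by Benjamini-Hochberg over all genes of a contrast, at a threshold of 0.05. ± after a difference is the standard error. The fit was tested on simulated data. Same-numbered replicates did not deviate together (correlations -0.0061 to 0.0114), so the numbers do not pair samples. Members and lists were chosen with earlier results of these data known. All members were named, and of each other list up to 4 genes with the largest differences among those called. Also named were the club cell secretoglobins Scgb1a1, Scgb3a1 and Scgb3a2 and the adipocyte genes Scd1, Pparg, Lpl and Retn. These were singled out after their values were seen. Alternatives covered the filter, the probe set, scaling to 18 hybridization spike probe sets, the variance model, array weights, replicate blocks, the threshold and arrays left out. They were read for the members and not for the other lists. Figures were drawn with matplotlib 3.10.9.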

Additional observations from a re-analysis of the deposited data

Results flagged for a closer look

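The difference between SWCNT and PF68 lungs itself differed between the days for 3 enzymes, by the interaction term of the limma fit with adjustment over all genes. For Cyp2e1 the day 7 difference minus the day 1 difference was -4.28 ± 0.18 (adjusted p = 0.00358), from -1.58 ± 0.13 on day 7 and 2.71 ± 0.13 on day 1, with all SWCNT arrays below PF68 on day 7 and above it on day 1. For Gstm1 it was -1.5 ± 0.16 (adjusted p = 0.0225), from -0.79 ± 0.11 on day 7 and 0.71 ± 0.11 on day 1, and its 3 further probe sets differed by 0.29, -0.04 and -0.24 on day 1. For Gstm2 it was -1.28 ± 0.18 (adjusted p = 0.0388), from -0.73 ± 0.13 on day 7 and 0.55 ± 0.13 on day 1. Scaled to the hybridization spikes these values were -3.54, -0.76 and -0.53, where the median of all genes was 0.80. The call of Gstm2 was lost there (adjusted p = 0.0639). With the mean of probe sets the calls of Gstm1 (-0.85, adjusted p = 0.111) and Gstm2 (adjusted p = 0.0503) were lost, as both were with no filter, under the replicate block and with any 1 array left out, and that of Gstm2 with all probe sets fitted (adjusted p = 0.0614). The causes were not tested.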

How the results depend on the processing

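Leaving out 1 array at a time gave 0 members called on day 7 each time (13 to 17 at an unadjusted p under 0.05), 1 on day 1 and 1 for the difference between the days each time, 2 to 14 between the days in SWCNT lungs (2 without SWCNT day 7 replicate 2 and 4 without replicate 1, 5 and 6 without a SWCNT day 1 array, 9 without either PF68 day 1 array) and 0 to 6 in PF68 lungs, where 0 came without either PF68 day 1 array. Against 5 members called on day 7, 5 on day 1 and 3 for the difference between the days, no filter gave 1, 1 and 1, the filter on all 8 arrays 12, 9 and 8, the mean of probe sets 1, 3 and 1, all probe sets fitted 2, 1 and 2, array weights 2, 6 and 3, a mean-variance trend 19, 10 and 10, a threshold of 0.1 12, 7 and 7, the arrays of that day alone 0 on day 7 and 1 on day 1, and, chosen after seeing the data, leaving out both SWCNT day 1 arrays 0 on day 7 (16 at an unadjusted p under 0.05). The replicate block, which pairs arrays only by number, gave 0 on day 7 (17 at an unadjusted p under 0.05), 1 on day 1 and 1 for the difference between the days. Scaled to the spikes, 10, 5 and 16 were called, with 14 of the 16 higher. Against 7 called between the days in PF68 lungs, the filter on all 8 arrays gave 11, the spikes 20, the trend 14 and the threshold of 0.1 11. Against 15 in SWCNT lungs, no filter gave 9. The share of all genes called under each alternative is not given here, so these counts do not compare the members with all genes.

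The median member difference scaled to the spikes was 0.26 on day 7, -0.16 on day 1, 0.55 for the difference between the days, -0.21 between the days in SWCNT lungs and -0.64 in PF68 lungs. With the mean of probe sets it was -0.37 on day 7 and -0.26 for the difference between the days, which lay between -0.30 and -0.15 with 1 array left out. Under the spike scaling a value called on either scale changed sign for Gsta4 on day 7 (0.40). So did the difference between the days in Aldh2 (0.60), Aox3 (0.55), Gsta4 (0.57) and Mgst1 (0.57). Between the days in PF68 lungs it changed for Cyp2f2 (-0.11), Aldh1a7 (-0.43), Cbr3 (-0.60), Gsta4 (-0.45) and Gstm1 (-0.56). On that scale the median of all genes was -0.56 in PF68 lungs, 0.80 for the difference between the days and 0.55 on day 7. The calls of Cyp2e1 on day 1, for the difference between the days and between the days in SWCNT lungs, and of Gstm1 between the days in SWCNT lungs, stayed past 0.05 under every alternative run. Over all values of single enzymes under all alternatives, 2010 kept direction and call, 251 lost the call and 93 gained one. Another 67 changed sign without a call in the main fit or the alternative. These come besides the 10 named above, which changed sign and were called on either scale.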
